A study of Mus musculus with 4 samples.

Results

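The genes described here are the neutrophil chemokines Cxcl1, Cxcl2 and Cxcl3, their receptor gene Cxcr2, and the calprotectin genes S100a8 and S100a9. They were chosen by name, 6 genes of the 27998 in the feature list, and all 6 had counts in every library. The samples were immune cells from B16-GP33 tumours, a mouse melanoma line engineered to carry the GP33 peptide, grown under the skin of the right flank of C57BL/6 mice and harvested on day 18. Live leukocytes, which excluded propidium iodide and carried CD45.2, were sorted from digested tumours and profiled with 10x Genomics droplet RNA sequencing. Mice received 200 ug of each antibody on days 8, 10 and 12, in 4 groups: an IgG control, an antibody to PD-1, an antibody to PSGL-1, or both antibodies (the combination). PD-1 restrains T cells that have been activated, while PSGL-1 lets leukocytes bind selectins. Each group was 1 library, and the number of mice behind it is not given in the sources used here.

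CXCL1, CXCL2 and CXCL3 are small secreted proteins that bind CXCR2, a receptor through which neutrophils are drawn out of bone marrow and blood into inflamed tissue. Macrophages, monocytes and neutrophils are known to make them quickly after signals that activate NF-kB, such as IL-1 and TNF. S100A8 and S100A9 pair to form calprotectin, a metal-binding protein that fills the cytosol of neutrophils and is also made by some monocytes. Because neutrophils hold so much of this RNA, broken neutrophils can release it into the droplets of other cells, so S100a8 and S100a9 counts outside neutrophils need a background measurement.

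The libraries held 27270 barcodes and 184611085 UMIs (unique molecular identifiers, which count each captured RNA molecule once), and 24487 cells were kept, between 4228 in the combination library and 8748 in the IgG library. Library pairs shared 6 to 14 cell barcodes. Cells were clustered without the 6 genes and classes were named by other markers. Neutrophil-like cells numbered 450 in the IgG, 54 in the anti-PD-1, 246 in the anti-PSGL-1 and 95 in the combination library, with median depths of 1309, 1751, 2025 and 2187 UMIs. In each library all 10 neutrophil markers were detected in these cells, and summed to between 13908 and 19857 CPM (a gene's part of the UMIs of that class in that library, scaled to 1000000). In the same cells the 10 macrophage markers summed to 116 to 233 CPM and the 6 T cell markers to 68.9 to 171 CPM. The 10 monocyte markers summed to more, 1006 CPM in the IgG library to 2428 CPM in the combination library. Monocyte-like cells numbered 587, 577, 625 and 526 and macrophage-like cells 1706, 1839, 1687 and 1035, in the same library order. With 1 library per group no test between groups was possible, and all intervals given are exact 95% intervals that cover counting error only.

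The 3 chemokine genes lie close together on chromosome 5, Cxcl3 at chr5:90786103-90789600, Cxcl1 at chr5:90891241-90893115 and Cxcl2 at chr5:90903871-90905938, all on the plus strand (GENCODE vM21 on GRCm38). Cxcr2 lies at chr1:74153989-74161246 on the plus strand. S100a8, at chr3:90668978-90670035 on the plus strand, neighbours S100a9, at chr3:90692632-90695721 on the minus strand. The windows below run from 120 bases before to 10 bases after the RefSeq start of each gene (GRCm38.p6) and are shown because the 3 chemokine genes share sequence there. Capitals mark GGGAATTTC, the start of a sequence of the kind bound by NF-kB dimers, and ATAAAAG, which matches the TATA box.
Cxcl1, chr5:90891125-90891254, plus strand: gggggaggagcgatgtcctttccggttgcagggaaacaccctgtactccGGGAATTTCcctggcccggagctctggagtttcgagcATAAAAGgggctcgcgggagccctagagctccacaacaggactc
Cxcl2, chr5:90903779-90903908, plus strand: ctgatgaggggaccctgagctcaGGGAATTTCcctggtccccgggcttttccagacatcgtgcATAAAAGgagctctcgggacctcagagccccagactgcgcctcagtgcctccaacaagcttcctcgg
Cxcl3, chr5:90785981-90786110, plus strand: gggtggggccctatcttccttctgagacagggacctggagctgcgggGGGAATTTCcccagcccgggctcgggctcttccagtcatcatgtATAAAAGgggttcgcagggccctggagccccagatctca
S100a8, chr3:90668951-90669080, plus strand: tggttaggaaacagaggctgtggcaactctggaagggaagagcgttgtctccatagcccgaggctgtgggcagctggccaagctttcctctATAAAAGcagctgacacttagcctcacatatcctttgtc

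GGGAATTTC began 71 bases before the start in Cxcl1, 97 in Cxcl2 and 73 in Cxcl3. Searched on both strands, it occurred in 85 of 32851 RefSeq promoters of 300 bases (0.259%), among them those of these 3 genes and of S100a9, where the match lay 135 bases before the start, outside the 130 bases of the window. ATAAAAG began 34, 57, 29 and 29 bases before the start in Cxcl1, Cxcl2, Cxcl3 and S100a8, and occurred in 1779 promoters (5.42%). All these distances are from RefSeq starts, which differ from the GENCODE gene starts given above. The GENCODE starts of Cxcl2 (90903871) and S100a8 (90668978) lie inside the windows, before the RefSeq starts. Distances from them would differ, and for Cxcl2 both would be shorter. The motifs did not overlap each other in any of these windows. The windows of Cxcr2 and S100a9 held neither motif. These matches describe letters, and binding was not measured.

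Cxcl2, a chemokine of activated neutrophils, macrophages and monocytes, was at its highest in neutrophil-like cells among the 3 large myeloid classes. Neutrophil-like cells held 48424 CPM of Cxcl2 in the IgG library (interval 47881 to 48971), 43212 in the anti-PD-1 library, 46677 in the anti-PSGL-1 library and 37124 in the combination library. The combination value was the lowest and the IgG value the highest, at a combination to IgG ratio of 0.767 (0.748 to 0.785). With each cell thinned to 1000 UMIs, so that depth was equal, a Cxcl2 UMI was found in 97.5%, 98.1%, 97.4% and 94.7% of neutrophil-like cells, against 95.1%, 96.3%, 97.2% and 97.9% before thinning. Thinning left out 92, 1, 15 and 1 neutrophil-like cells with fewer UMIs.

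Macrophage-like cells held 4454 CPM of Cxcl2 in the IgG library, 5044 in the anti-PD-1 library, 6777 in the anti-PSGL-1 library and 4549 in the combination library. The anti-PSGL-1 library was thus the highest, 1.52 times the IgG library (1.503 to 1.540), a ratio that was past 1.5 in 4 of 9 other analysis settings, with a lowest value of 1.07 under the marker gate (classes set by marker genes alone, without clusters). Monocyte-like cells held 1333 CPM in the IgG library, 875 in the anti-PD-1 library, 4159 in the anti-PSGL-1 library and 2219 in the combination library. The order of the 3 classes, neutrophil over macrophage over monocyte, was the same in all 4 libraries. T-like cells, which are not a known source of this gene, held 22.8, 14.5, 33.1 and 8.69 CPM, and 1.98%, 1.47%, 3.07% and 0.972% of them had a Cxcl2 UMI after thinning. The same thinned share was 44.8%, 47.6%, 52.6% and 47.8% in macrophage-like cells and 32.0%, 23.0%, 48.5% and 41.8% in monocyte-like cells, far above the T-like background.

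Cxcl3, another ligand of CXCR2, followed the same order of classes. Neutrophil-like cells held 2450 CPM of Cxcl3 in the IgG library, 945 in the anti-PD-1 library, 2422 in the anti-PSGL-1 library and 2156 in the combination library. The anti-PD-1 library stood apart from the other 3, with 96 UMIs in 54 cells and a ratio to IgG of 0.386 (0.311 to 0.474). In that library 1 cell held 26.0% of those 96 UMIs. Macrophage-like cells held 138, 79.5, 173 and 56.6 CPM, so both libraries that received anti-PD-1 were below the IgG and anti-PSGL-1 libraries. Monocyte-like cells held 36.1, 1.12, 141 and 22.6 CPM, and T-like cells 0.722, 0.393, 3.34 and 0.334 CPM.

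Cxcl1 differed from the other chemokines in where it was found. Macrophage-like cells held 110 CPM of Cxcl1 in the IgG library, 123 in the anti-PD-1 library, 149 in the anti-PSGL-1 library and 134 in the combination library. The intervals of the anti-PSGL-1 library (142 to 156) and of the IgG library (103 to 117) did not overlap. The ratio was 1.35 (1.25 to 1.47), short of 1.5-fold. Over 9 other analysis settings that ratio ran from 0.665 to 1.43, so its direction depended on the setting. Neutrophil-like cells held 131, 49.2, 69.9 and 145 CPM, from 82, 5, 39 and 33 UMIs, and 1 cell carried 75.8% of the UMIs of the combination library and 41.0% of those of the anti-PSGL-1 library. After thinning, 3.09%, 3.96%, 4.66% and 4.48% of macrophage-like cells had a Cxcl1 UMI, against 0.110%, 0.0641%, 0.0796% and 0.0486% of T-like cells. The macrophage Cxcl1 UMIs were held by few cells: the 1% of macrophage-like cells with most of them carried 64.8%, 54.1%, 48.3% and 49.5% of them. Ranked by each gene in turn, the top 1% carried 56.1%, 78.6%, 46.9% and 61.6% of macrophage Cxcl3 UMIs but 15.1%, 12.1%, 10.8% and 9.62% of macrophage Cxcl2 UMIs, so Cxcl2 was spread over more cells.

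**Figure D1:**
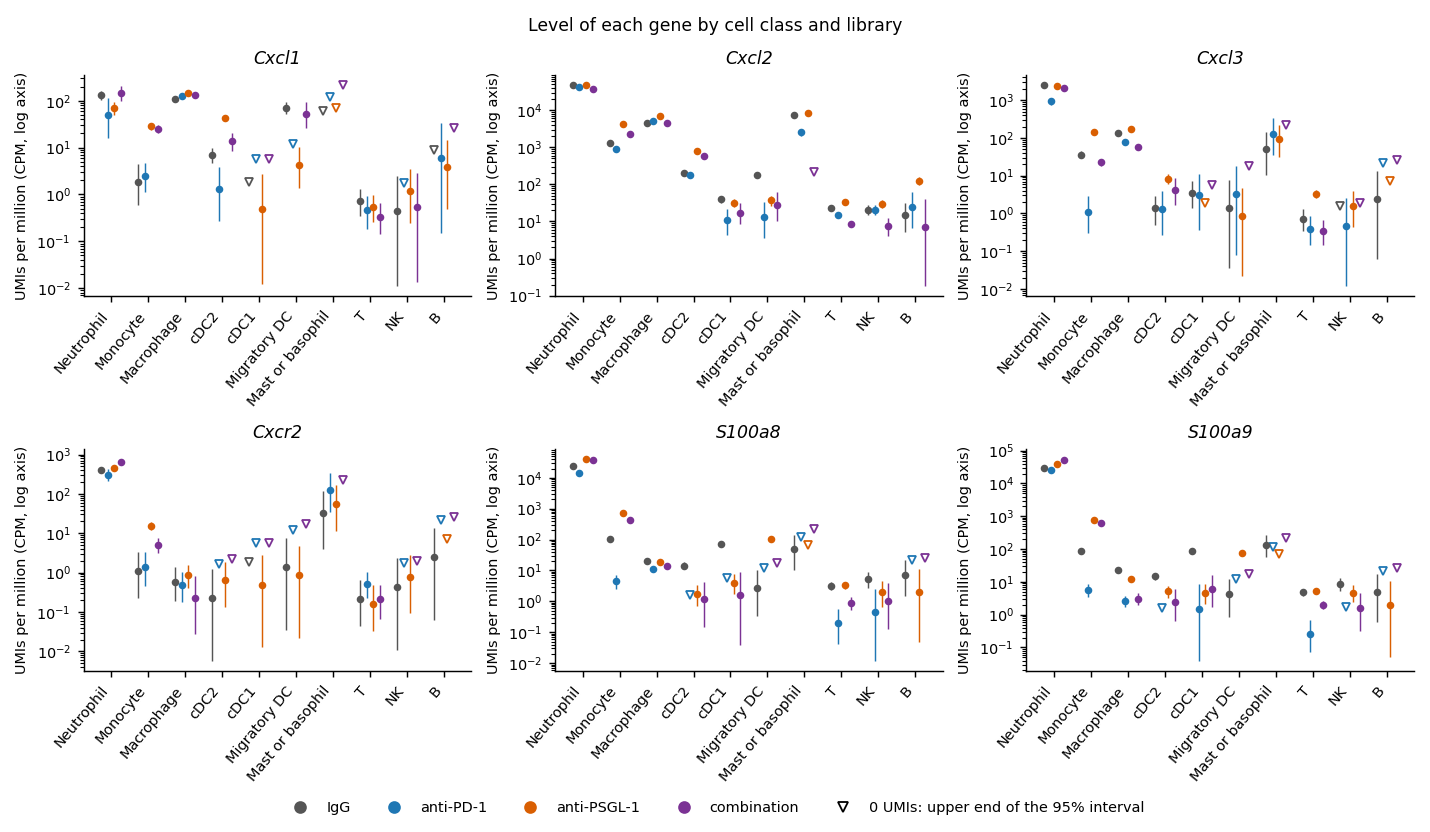
Level of each gene (CPM, log axis) in 10 named cell classes, with 1 point per library and bars for the exact 95% Poisson interval; open triangles mark the upper end of the interval where a class had 0 UMIs. Cxcr2, S100a8 and S100a9 stand highest in neutrophil-like cells in every library, while Cxcl1 in macrophage-like cells (110 to 149 CPM) reaches the range of neutrophil-like cells (49.2 to 145 CPM).

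As a share of all Cxcl2 UMIs of a library, macrophage-like cells held 48.9%, 88.2%, 60.2% and 67.1% (IgG, anti-PD-1, anti-PSGL-1, combination), and neutrophil-like cells held 39.5%, 6.28%, 20.0% and 14.3%. Monocyte-like cells held 4.62%, 4.46%, 15.2% and 16.5%, so their part was larger in both libraries that received anti-PSGL-1. For Cxcl1 the macrophage share was 74.1%, 98.4%, 81.4% and 86.2%. For Cxcl3 the neutrophil share was 52.9%, 8.82%, 32.2% and 44.6%, and the macrophage share 40.1%, 89.2%, 47.4% and 44.9%. The anti-PD-1 library, which had the fewest neutrophil-like cells, thus drew nearly all of its chemokine RNA from macrophage-like cells. Macrophage- and monocyte-like cells together held 53.5%, 92.7%, 75.2% and 83.4% of the UMIs of the 3 chemokines. These shares depend on how many cells of each class were captured, and counts of captured cells were not tested between libraries.

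**Figure D2:**
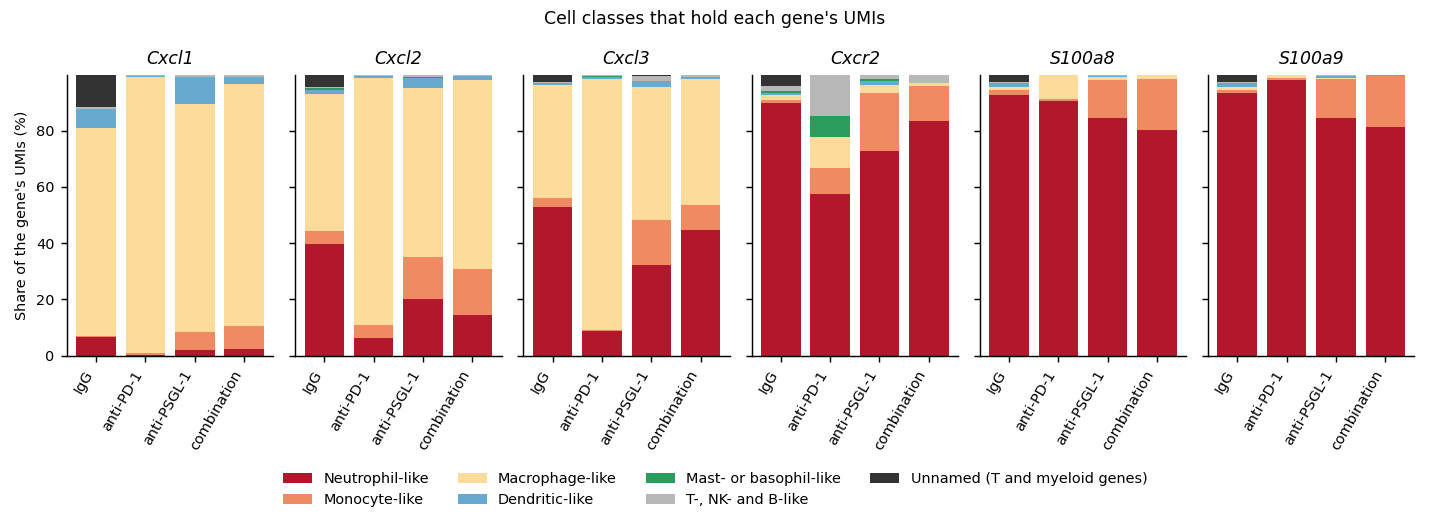
Stacked bars give the share (%) of each gene's UMIs held by each cell class, with 1 bar per library for each of the 6 genes. Neutrophil-like cells hold 80.3% to 97.9% of the calprotectin UMIs in every library, while their share of Cxcl2 runs from 6.28% to 39.5%.

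The chemokines were unequal among clusters of macrophage- and monocyte-like cells. The macrophage cluster led by Arg1 and Inhba held 8324, 8735, 9855 and 8035 CPM of Cxcl2, the cluster led by Cxcl9 and Ccl2 held 3337, 3546, 5912 and 3893 CPM, and the C1q and Ccl8 cluster held 850, 402, 514 and 333 CPM. Arg1 encodes arginase 1, an enzyme of wound-type macrophages, and C1q genes encode complement parts made by mature tissue macrophages. The order of these 3 clusters was the same in each library. Cxcl3 kept it too, with 362, 226, 350 and 184 CPM in the Arg1 cluster, 59.9, 12.97, 94.7 and 21.7 CPM in the Cxcl9 cluster and 3.13, 1.94, 4.09 and 0 CPM in the C1q cluster. Cxcl1 in the Arg1 cluster was 238, 263, 178 and 307 CPM, and in the Cxcl9 cluster 65.4, 59.5, 150 and 91.5 CPM, so the anti-PSGL-1 library had the smallest gap between them.

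Among monocyte-like cells, the cluster rich in Ace and Treml4 held more Cxcl2 than the cluster led by Chil3 and F13a1, genes of classical monocytes. Ace and Treml4, genes of patrolling monocytes, were found in 81.9% and 74.5% of the Ace cluster's cells and in 16.2% and 13.9% of the Chil3 cluster's. The Ace cluster was not free of the other monocyte markers. Chil3, F13a1, Ccr2 and Ly6c2 were found in 52.3%, 22.2%, 62.2% and 54.6% of its cells. In the Chil3 cluster they were found in 71.1%, 80.1%, 90.4% and 93.4%. In the Ace cluster Cxcl2 was 2400, 984, 6644 and 3029 CPM, and in the Chil3 cluster 996, 835, 1284 and 1419 CPM. The Ace cluster was highest in the anti-PSGL-1 library, where 59 of its 302 cells had 10 or more calprotectin UMIs, as described with those cells. Without such cells Cxcl2 in the Ace cluster was 1842, 991, 3523 and 2505 CPM. Cxcl3 in the Ace cluster was 111, 2.07, 245 and 35.5 CPM, against 12.4, 0.769, 21.3 and 9.90 CPM in the Chil3 cluster, and without those cells it was 25.0, 2.09, 88.0 and 35.6 CPM. The Ace cluster made up 159 of 587, 173 of 577, 302 of 625 and 252 of 526 monocyte-like cells, so its weight in the class was also greater in the libraries that received anti-PSGL-1.

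**Figure D3:**
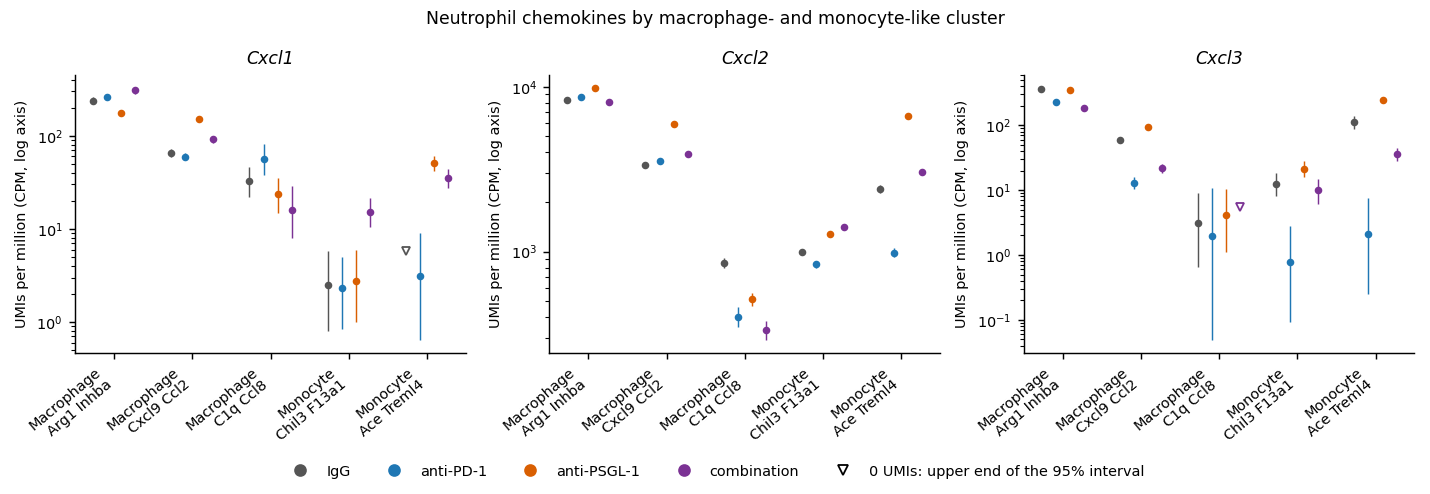
Level of Cxcl1, Cxcl2 and Cxcl3 (CPM, log axis) in 3 macrophage-like and 2 monocyte-like clusters, with 1 point per library, bars for the exact 95% Poisson interval and open triangles for 0 UMIs. Cxcl2 and Cxcl3 are highest in the Arg1 cluster, lower in the Cxcl9 cluster and lowest in the C1q cluster in each library, and the Ace cluster of monocyte-like cells reaches 6644 CPM of Cxcl2 in the anti-PSGL-1 library, with cells of 10 or more calprotectin UMIs included (3523 CPM without them).

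Cxcr2, the receptor of these chemokines, was largely a neutrophil gene in these tumours. Neutrophil-like cells held 402 CPM of Cxcr2 in the IgG library (354 to 454), 305 in the anti-PD-1 library (207 to 433), 454 in the anti-PSGL-1 library (399 to 513) and 645 in the combination library (545 to 759). The combination library was the highest, and the intervals of the other 3 overlapped one another. After thinning a Cxcr2 UMI was found in 24.6%, 17.0%, 30.3% and 38.3% of neutrophil-like cells, and before it in 32.2%, 24.1%, 48.0% and 56.8%. Macrophage-like cells had 5, 6, 10 and 2 Cxcr2 UMIs, at 0.229 to 0.866 CPM, near the 0.162 to 0.524 CPM of T-like cells. Neutrophil-like cells held 252 of 280 Cxcr2 UMIs in the IgG library, 57.4% in the anti-PD-1 library, 72.7% in the anti-PSGL-1 library and 83.5% in the combination library, where the anti-PD-1 value rests on 54 UMIs in all. Monocyte-like cells held 1.13, 1.40, 15.2 and 4.98 CPM, and the larger values came with calprotectin, as given with the cells of high calprotectin counts.

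S100a8 and S100a9, which encode the subunits of calprotectin, were high in neutrophil-like cells of all libraries but at different levels. S100a8 stood at 23747 CPM in the IgG library, 14588 in the anti-PD-1 library, 39265 in the anti-PSGL-1 library and 37173 in the combination library. S100a9 stood at 29138, 25425, 39648 and 53763 CPM. Both genes stood lower in the IgG and anti-PD-1 libraries than in the other 2. S100a8 was detected in 86.0%, 71.7%, 88.3% and 93.6% of thinned neutrophil-like cells, and S100a9 in 81.8%, 83.0%, 88.7% and 93.6%. The balance of the subunits also differed, since S100a8 made up 44.9% (44.4% to 45.4%), 36.5% (35.0% to 38.0%), 49.8% (49.3% to 50.2%) and 40.9% (40.2% to 41.6%) of their joint UMIs.

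Neutrophil-like cells were not uniform. Clustered again without the 6 genes, they formed a group led by Retnlg and Anxa1 (344 cells), a group with Hilpda, Spp1 and Mif among its leading genes (277 cells), a group led by the interferon-induced genes Gbp2, Cxcl10 and Ifit1 (123 cells), a group led by the heat shock genes Hspa1a and Hspa1b (91 cells), and 10 cells with T cell genes. Over all libraries Cxcr2 was 756 CPM in the Retnlg group and 70.8 CPM in the Hilpda group. S100a8 was 54508 against 10030 CPM and S100a9 63218 against 12016 CPM. The chemokines ran the other way, with Cxcl2 at 30623 against 71194 CPM and Cxcl3 at 1237 against 4551 CPM. The receptor and calprotectin genes were thus high where Cxcl2 and Cxcl3 were low.

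The same contrast stood in each library. The Hilpda group held 2.30, 2.31, 2.22 and 2.88 times the Cxcl2 of the Retnlg group (IgG, anti-PD-1, anti-PSGL-1, combination) and 4.52, 15.6, 2.97 and 5.37 times its Cxcl3. For S100a8 the ratio was 0.133, 0.146, 0.268 and 0.113, and for S100a9 0.130, 0.140, 0.312 and 0.127. Calprotectin in the Hilpda group was therefore closest to that of the Retnlg group in the anti-PSGL-1 library. For Cxcr2 the ratio was 0.123, 0.0969 and 0.0557 in the IgG, anti-PSGL-1 and combination libraries, and the anti-PD-1 library had 0 UMIs in the Hilpda group against 17 in the Retnlg group, an interval that ends at 0.123. For Cxcl1 the ratio was 19.5, 2.03, 4.13 and 0.186, from 66 against 3, 4 against 1, 30 against 9 and 2 against 29 UMIs. Its direction in the combination library was thus the opposite of the others. There 1 cell held 25 of the 29 UMIs of the Retnlg group, so that opposite direction rests on 1 cell.

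Genes of the related lists show what kind of cells these groups were. In the Retnlg group the granule gene Ngp stood at 1748 CPM and Camp, the cathelicidin gene, at 1146 CPM, against 0 and 1.97 CPM in the Hilpda group. Csf3r, the receptor gene for G-CSF, was 1530 against 261 CPM (Retnlg against Hilpda group). The Hilpda group had more RNA of the chemokine genes Ccl3 (21696 against 2567 CPM) and Ccl4 (22951 against 3620 CPM) and of Tnf (1754 against 258 CPM). Il1b, which encodes IL-1 beta, was higher in the Retnlg group, at 24554 against 11068 CPM. The clustering used these list genes, so their differences between groups are a description of the groups.

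Cxcl3 was also read in cells with and without a UMI of the receptor gene. After thinning, Cxcl3 was detected in 17.0% of neutrophil-like cells with a Cxcr2 UMI and 37.0% of those without in the IgG library, 0% and 31.8% in the anti-PD-1 library, 25.7% and 40.4% in the anti-PSGL-1 library, and 11.1% and 31.0% in the combination library. The numbers of cells with a Cxcr2 UMI were 88, 9, 70 and 36. The share was lower in cells with a Cxcr2 UMI in each library, and no test was made.

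**Figure D4:**
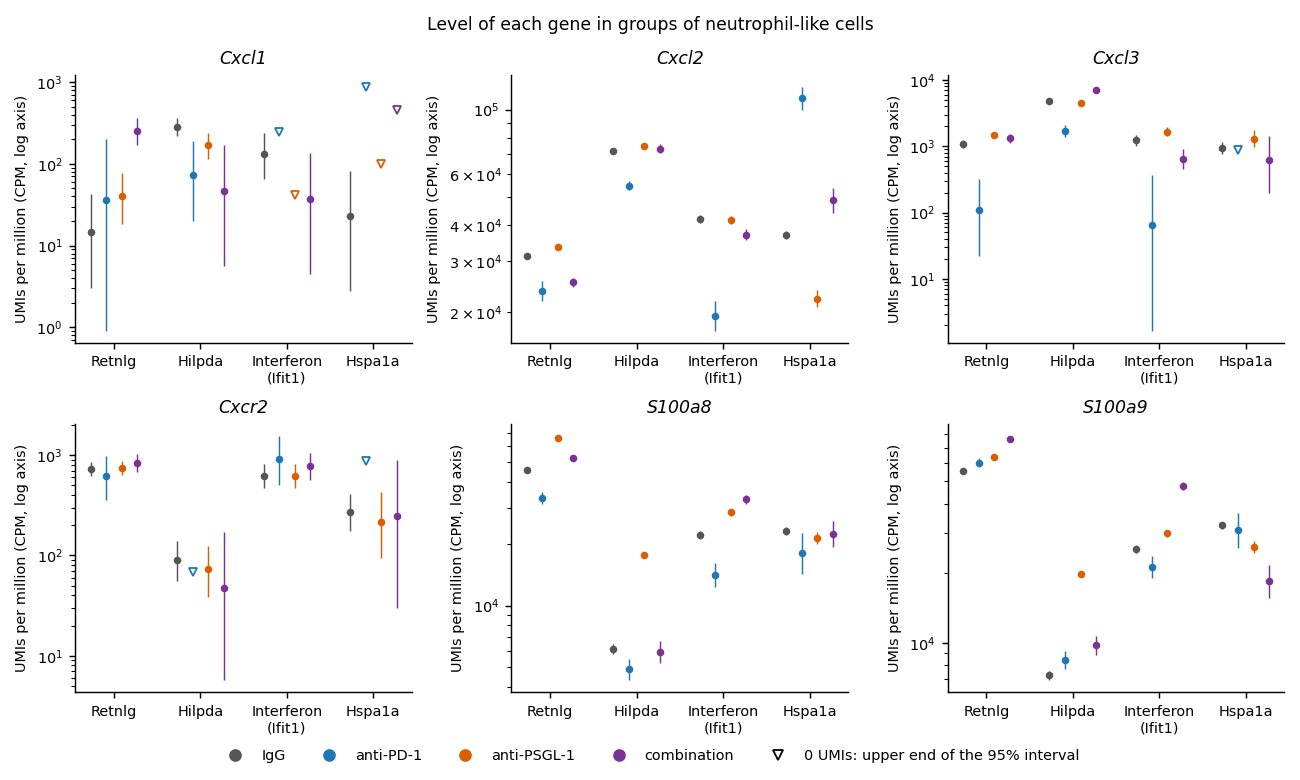
Level of each gene (CPM, log axis) in 4 groups of neutrophil-like cells, with 1 point per library, bars for the exact 95% Poisson interval and open triangles for 0 UMIs; the 10 cells with T cell genes are not drawn. Cxcl2 and Cxcl3 stand higher in the Hilpda group than in the Retnlg group in each library, and Cxcr2, S100a8 and S100a9 lower.

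The libraries were compared in neutrophil-like cells by counting genes whose CPM differed by 1.5-fold or more, leaving out genes under 50 CPM in both. All 6 genes met that minimum in each comparison. The comparisons with IgG share that library, and those with the combination share the combination library, so they are not independent. Of the 6 genes, 3 were lower in the anti-PD-1 library than in the IgG library (Cxcl1, Cxcl3 and S100a8) and 0 were higher, beside 36.0% of all 2314 genes past that fold in either direction and 15.9% lower. In anti-PSGL-1 against IgG, S100a8 was higher at 1.65 (1.62 to 1.69) and Cxcl1 lower at 0.535 (0.356 to 0.792), beside 20.7% of all genes. In the combination against IgG, Cxcr2 at 1.61 (1.30 to 1.98), S100a8 at 1.57 (1.52 to 1.61) and S100a9 at 1.85 (1.80 to 1.89) were higher, beside 42.0% in either direction and 18.8% higher. With so many genes past the fold, counts of 2 or 3 of 6 are close to the share of all genes in either direction. In anti-PD-1 and in the combination the 3 genes went 1 way, where the shares in that direction were 15.9% and 18.8%. No test was made.

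The combination differed from anti-PD-1 in 5 of the 6 genes, all higher, beside 53.8% of all genes in either direction and 23.4% higher. The ratios were 2.55 (2.41 to 2.69) for S100a8, 2.11 (2.03 to 2.21) for S100a9, 2.12 (1.43 to 3.22) for Cxcr2, 2.28 (1.83 to 2.87) for Cxcl3 and 2.94 (1.14 to 9.66) for Cxcl1. Cxcl2 was the exception, at 0.859 (0.828 to 0.891). The combination differed from anti-PSGL-1 in Cxcl1 alone, at 2.07 (1.26 to 3.38), beside 33.5% of all genes, and S100a8 was close in both at a ratio of 0.947 (0.923 to 0.971). In both Cxcl1 ratios 1 cell held 25 of the 33 UMIs of the combination library. With the cell of most Cxcl1 UMIs left out of each library, Cxcl1 was 95.9, 9.96, 41.4 and 35.9 CPM, from 60, 1, 23 and 8 UMIs, and the combination to anti-PSGL-1 ratio was 0.868 (0.336 to 2.01), on the other side of 1, and that of the combination to IgG 0.374 (0.155 to 0.786). Cxcl1 was then under the minimum in the combination against anti-PD-1, where the values rest on 54 cells.

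The neutrophil groups were present in different proportions. The Retnlg group was 37.1%, 31.5%, 45.5% and 50.5% of neutrophil-like cells (IgG, anti-PD-1, anti-PSGL-1, combination), and the Hilpda group 34.4%, 48.1%, 31.3% and 20.0%. Cxcr2 and S100a9 levels had the same order of libraries as the Retnlg share, and S100a8 did except between anti-PSGL-1 and the combination. Cxcl1 and Cxcl3 did not follow the Hilpda share. Both were lowest in the anti-PD-1 library, where that share was highest. Within the Retnlg group alone the combination to IgG ratio was 1.15 for Cxcr2, 1.14 for S100a8 and 1.38 for S100a9, each under 1.5-fold. In the same group S100a8 was 1.43 in anti-PSGL-1 against IgG and 0.725 in anti-PD-1 against IgG, while Cxcl3 in anti-PD-1 against IgG was 0.101 (0.0207 to 0.299), from 3 UMIs in the anti-PD-1 library. Within the Hilpda group, S100a8 and S100a9 were 2.87 and 2.75 times the IgG level in the anti-PSGL-1 library. The calprotectin ratios thus held different sizes in the 2 groups, and the Cxcl3 ratio of anti-PD-1 to IgG was below 1 in both (0.348 in the Hilpda group).

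Gene lists around these genes were read in the same neutrophil-like cells. Genes past the fold in either direction were 36.0% of all genes in anti-PD-1, 20.7% in anti-PSGL-1 and 42.0% in the combination against IgG, and the counts of these lists are to be read against those shares. Of 6 measured granule genes, 4 were lower in anti-PD-1 than in IgG (Mmp8, Ltf, Camp and Ngp), beside 15.9% of all genes lower. In anti-PSGL-1 3 were higher than in IgG, and in the combination 6 were higher, beside 18.8% of all genes higher, where Ngp was 7.94 (6.62 to 9.56) and Ltf, the lactoferrin gene, 5.39 (4.02 to 7.28) times the IgG level. The median log2 ratio of the granule genes in the combination against IgG was 2.01, beside -0.05 over all genes. Of the tumour neutrophil list 3 of 7 were lower in the combination than in IgG, among them Hilpda at 0.477 and Cstb at 0.460, and 3 of 7 lower in anti-PSGL-1, among them Vegfa, the vessel growth factor gene, at 0.439. In anti-PD-1 against IgG 2 of 7 were higher, Ccl3 at 1.66 and Ccl4 at 2.12. The Camp and Ngp genes had 0 UMIs in the anti-PD-1 neutrophil-like cells, against 277 and 255 CPM in IgG.

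Of 11 measured genes that induce these chemokines or feed back on NF-kB, no more than 3 were past the fold in any comparison with IgG, beside the 36.0%, 20.7% and 42.0% of all genes. In that list 1 was higher in anti-PD-1 than in IgG (Tnf, at 2.32) and 1 lower (Nfkb1), 0 were higher in anti-PSGL-1 and 1 lower (Atf3, at 0.527), and in the combination Il1b (1.56) and Nfkb1 (2.12) were higher and Atf3 (0.369) lower. Atf3 encodes a stress-induced repressor of inflammatory genes. Among genes of neutrophil growth and retention, Cxcr4, the receptor gene for the marrow retention signal CXCL12, was 1.76 in anti-PD-1 against IgG. Of the calprotectin receptors and related S100 genes, S100a6 was 1.60 in anti-PSGL-1 and 1.75 in the combination against IgG. Cxcr1, the other receptor of this family, was at 60.9 CPM in the anti-PSGL-1 and 21.9 CPM in the combination library. Cxcl5, another ligand of CXCR2, had 0 UMIs in each neutrophil group.

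Monocyte-like cells had 3 or 4 of the 6 genes above the 50 CPM minimum, depending on the comparison. In anti-PSGL-1 against IgG 4 of 4 were higher, beside 4.74% of all genes in either direction and 3.21% higher: Cxcl2 at 3.12 (3.01 to 3.24), Cxcl3 at 3.92 (3.16 to 4.91), S100a8 at 6.82 (6.04 to 7.71) and S100a9 at 8.90 (7.78 to 10.2). In the combination against IgG 3 of 3 were higher, beside 6.95% in either direction and 5.78% higher, with Cxcl2 at 1.66, S100a8 at 4.02 and S100a9 at 7.19. Under the marker gate these were 1.26, 0.920 and 0.976, and 1 cell held 60.02% of the S100a8 and 57.3% of the S100a9 UMIs of the combination library. In anti-PD-1 against IgG 3 of 3 were lower, beside 12.4% in either direction and 3.17% lower, with Cxcl2 at 0.657, S100a8 at 0.0415 and S100a9 at 0.0658. The Cxcl2 ratio was past the fold in 2 of 9 other settings and was 1.12 (1.11 to 1.14) under the marker gate. A gene that passes the minimum through the library where it is high has to differ, so these counts describe the genes that passed and not all 6. In the combination against anti-PD-1 the ratio was 2.54 for Cxcl2, 96.9 for S100a8 and 109 for S100a9, beside 8.87% of all genes in either direction and 3.63% higher, while under the marker gate 0 genes both met the minimum and were past the fold and Cxcl2 was at 1.12. In the combination against anti-PSGL-1 the ratio was 0.533 for Cxcl2, 0.160 for Cxcl3 and 0.590 for S100a8, beside 8.93% in either direction.

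A few monocyte-like cells carried most of the calprotectin. S100a8 was at 108, 4.49, 738 and 435 CPM and S100a9 at 85.3, 5.61, 760 and 614 CPM in monocyte-like cells, but the number of cells with 10 or more calprotectin UMIs was 9, 1, 61 and 16. Those 87 cells, 84 of them in the Ace cluster, held 97.8% of the class's calprotectin UMIs, and 1 cell of the combination library had 2706. Without the 87 cells S100a8 was 17.6, 3.37, 13.5 and 15.5 CPM and S100a9 6.49, 0.843, 9.41 and 6.36 CPM. Without them, 0 genes were past the fold in anti-PD-1 against IgG, 2 in anti-PSGL-1 against IgG, and 1 in each of the other comparisons. S100a8 and S100a9 were then under the 50 CPM minimum in each library and could not count, as the cells were left out by those same counts. The share of all genes past the fold was not computed for the cells that remained. Cxcl2 without them was 1191, 877, 2343 and 1936 CPM, so the anti-PSGL-1 library remained above the IgG library.

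These cells carried genes of both lineages. Ace was found in 67.8% and Treml4 in 62.1% of them, and Retnlg, a neutrophil gene, in 33.3%, against 0.0449% of the other monocyte-like cells. Part of the neutrophil reference list was counted: Retnlg, Il1r2, Mmp9, Hdc, Wfdc21, Ly6g, Stfa2l1 and Asprv1. A UMI of at least 1 of these was found in 82 of the 87, and in 25.1% of the monocyte-like cells with no calprotectin UMI. Csf3r, a gene of that list left out of this count, was found in 83.9% of the 87 and in 41.5% of the other monocyte-like cells. Their Cxcr2 was 97.8 CPM against 1.44 CPM in the rest, Cxcl2 14551 against 1659 CPM and Cxcl3 625 against 24.3 CPM. Their median depth was 8775 UMIs against 6055.5. Whether they were doublets of a monocyte with a neutrophil was not tested.

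In macrophage-like cells 3 of the 6 genes, the chemokines, met the minimum. Cxcl3 was lower in anti-PD-1 than in IgG at 0.575 (0.528 to 0.627), beside 12.0% of all genes, and lower in the combination than in IgG at 0.410 (0.368 to 0.456), beside 4.81%. It was also lower in the combination than in anti-PSGL-1, at 0.328 (0.297 to 0.362), beside 10.3%. Cxcl2 was past the fold in anti-PSGL-1 against IgG alone, beside 1.72%, and 0 of the 3 were past it in the combination against anti-PD-1, beside 4.55%. Tnf, an inducer of these chemokines, was 2.71 (2.55 to 2.87) in anti-PD-1 and 2.06 (1.93 to 2.20) in the combination against IgG, the libraries where Cxcl3 was lower. Pf4, which encodes another chemokine of the CXC family, was 0.383 in anti-PD-1 and 0.256 in the combination against IgG. Melanoma markers in macrophage-like cells summed to 72.2 CPM in the IgG library and 18.5 to 21.8 CPM in the others, and their part in these ratios was not tested.

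In cDC2-like cells, a class of conventional dendritic cells, Cxcl2 was the sole gene of the 6 above the minimum. It stood at 205, 177, 814 and 579 CPM, so both libraries that received anti-PSGL-1 were high. The ratio to IgG was 3.98 (3.70 to 4.28) for anti-PSGL-1, beside 6.55% of all genes, and 2.83 (2.58 to 3.101) for the combination, beside 7.89%. Against anti-PD-1 the combination stood at 3.27 (2.91 to 3.69), beside 7.62%. After thinning 8.10%, 5.80%, 17.3% and 12.6% of these cells had a Cxcl2 UMI.

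Outside neutrophil-like cells lay 6.83% (6.57% to 7.10%) of all calprotectin UMIs in the IgG library, 4.96% (4.33% to 5.65%) in the anti-PD-1 library, 15.4% (15.1% to 15.7%) in the anti-PSGL-1 library and 19.0% (18.6% to 19.5%) in the combination library. Under the marker gate these shares were 7.49%, 6.62%, 10.01% and 6.00%, and with no doublets removed 14.3%, 11.4%, 25.1% and 24.9%, so the order of the libraries depended on how cells were classed. Cells with 10 or more such UMIs held 54.1%, 21.7%, 93.6% and 94.3% of that part, in 37, 2, 70 and 18 cells. In the combination library 1 cell had 2706 of the 4870 UMIs outside, and with the top cell left out of each library the shares were 6.05%, 4.40%, 14.6% and 9.46%. All other cells outside the neutrophil-like class had 13.5, 3.34, 8.29 and 6.76 calprotectin UMIs per 100 cells. In the IgG library 673 of these 1116 UMIs lay in 1079 unnamed cells with T cell and myeloid genes together, and without the unnamed cells the value was 6.17 per 100. T-like cells, taken as the background, had 4.06, 0.441, 6.33 and 3.34 per 100 cells, and none of the 8958 T-like cells had more than 3 UMIs. At the T-like rate, background would come to 30.04%, 13.2%, 76.3% and 49.4% of the UMIs in those other cells, and to 65.8% in the IgG library without the unnamed cells. Those other cells include the T-like cells that set the rate. T-like cells held 112 of the 1116, 7 of the 166, 161 of the 512 and 69 of the 278 UMIs. All of these count as background by definition, so the percents would be lower with T-like cells left out. The rest of these low counts came to between 0.984% and 3.88% of all calprotectin UMIs before the background was taken off. Beyond the neutrophil-like class, then, the calprotectin of the anti-PSGL-1 and combination libraries sat mostly in few cells with high counts.

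Macrophage-like cells held little of it, with S100a8 at 21.0, 11.1, 18.4 and 14.2 CPM and S100a9 at 22.8, 2.54, 12.1 and 3.09 CPM. After thinning 1.52%, 1.00%, 1.27% and 0.780% of them had an S100a8 UMI, against 0.586%, 0%, 0.398% and 0.243% of T-like cells. Among them 15 cells had 10 or more calprotectin UMIs and held 45.5% of the class's total. The balance of the subunits differed from that of neutrophils. In macrophage-like cells with fewer than 10, S100a8 made up 53.3%, 92.3%, 66.5% and 79.6% of calprotectin UMIs, against 40.2%, 42.9%, 39.1% and 30.4% in T-like cells and 44.9%, 36.5%, 49.8% and 40.9% in neutrophil-like cells. In the Arg1 cluster of the anti-PD-1 library it was 97.1% (91.6% to 99.4%), from 99 S100a8 and 3 S100a9 UMIs. The Arg1 cluster had 6.49, 14.5, 8.93 and 13.96 S100a8 UMIs per 100 such cells, but 4.39, 0.440, 3.31 and 1.89 S100a9 UMIs.

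In T-like cells the S100a8 share had intervals that included the neutrophil-like share in the IgG, anti-PD-1 and combination libraries. In the anti-PSGL-1 library the T-like interval lay below that share (31.5% to 47.1%). In macrophage-like cells with fewer than 10 the interval lay above it in each library, in IgG only just (45.02% to 61.5%). With all macrophage-like cells taken, the IgG interval (42.8% to 53.2%) included it and the others lay above it. In monocyte-like cells with fewer than 10 the S100a8 share was 73.0%, 12 of 15 UMIs, 58.9% and 71.0%. In those with 10 or more it was 53.5%, 19.0%, 49.1% and 40.9%, the last 2 close to the neutrophil-like values of the same libraries. The 40.9% rests mostly on 1 of 16 cells, which held 1153 of 1855 S100a8 and 1553 of 2684 S100a9 UMIs. As a further background measure, 11 other neutrophil genes, or 10 for anti-PD-1, were read per T-like cell as a percent of the neutrophil-like level, with medians of 0.238%, 0.301%, 0.206% and 0.0753%. S100a8 in T-like cells was 0.0492%, 0.00689%, 0.0278% and 0.0114% of the neutrophil-like level per cell. Of the chemokines, Cxcl2 in T-like cells was 0.170%, 0.172%, 0.228% and 0.113% of it, while macrophage-like cells held 32.6%, 41.2%, 43.8% and 43.2%.

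**Figure D5:**
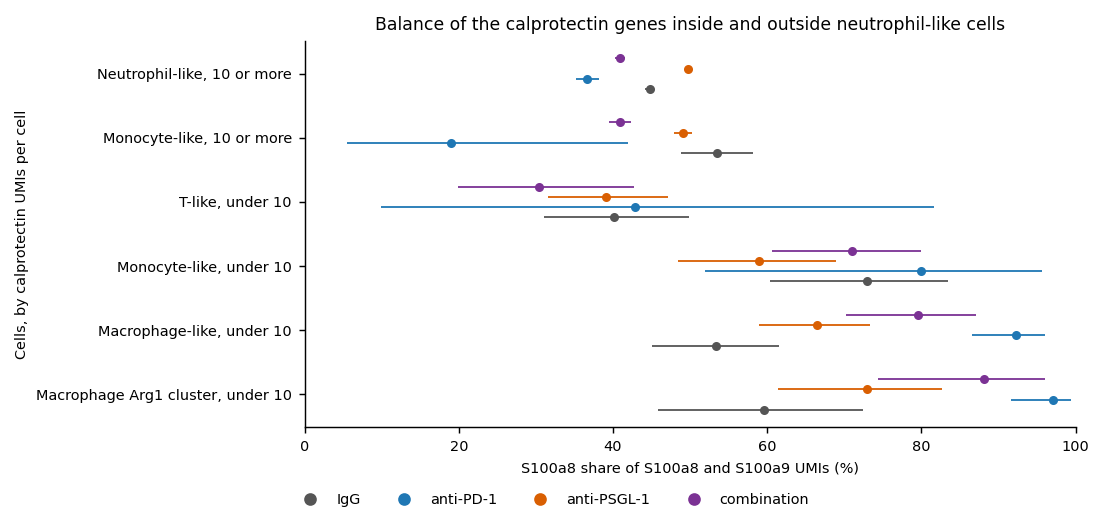
S100a8 share (%) of S100a8 and S100a9 UMIs by class and by calprotectin UMIs per cell, with 1 point per library and bars for the exact 95% binomial (Clopper-Pearson) interval. Monocyte-like cells with 10 or more UMIs lie near neutrophil-like cells in the anti-PSGL-1 and combination libraries, where the combination point rests mostly on 1 cell. The Arg1 macrophage cluster of the anti-PD-1 library lies at 97.1%.

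The genes most like each of the 6 were found by Pearson correlation of log2(CPM + 1) over 38 class-by-library points with 20 or more cells, among 5604 genes, as a description in which points share libraries and classes. S100a8 and S100a9 were most like each other, at r = 0.986, followed by G0s2 (0.935) and Lcn2 (0.932), the lipocalin 2 gene, for S100a8 and by Cxcr2 (0.927) for S100a9. Cxcr2 was most like Il1f9 (0.946) and Chil1 (0.943). Cxcl2 was most like Olr1 (0.976), a scavenger receptor gene, and C5ar1 (0.960), a complement receptor gene, and Cxcl3 was most like Dmxl2 (0.938), C5ar2 (0.936) and C5ar1 (0.923), and then Cxcl2 (0.921). Cxcl1 was most like Pdpn (0.884), the podoplanin gene, and Gdf15 (0.854), and shared none of its 5 nearest genes with Cxcl2 or Cxcl3.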

How the data were processed

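For each of 4 libraries the authors deposited UMI counts by gene and cell barcode, not normalised. The submitters' processing notes name Cell Ranger 3.1.0, FastQC and the mm10 build; the gene annotation version is not given in the sources used here. Barcodes with fewer than 300 genes, over 10% mitochondrial UMIs or over 60000 UMIs were left out. Scrublet scores, as built into scanpy, ranked likely doublets, and the top 0.8% per 1000 cells of each library were removed. Clustering left out Cxcl1, Cxcl2, Cxcl3, Cxcr2, S100a8 and S100a9 and used counts scaled to 10000 per cell and log-transformed, 2000 variable genes, 30 principal components, 20 neighbours and Leiden resolution 1 with seed 0 (scanpy 1.11.5, leidenalg 0.10.2 and scipy 1.17.1 under Python 3.11.15), with no correction for batch. Marker lists gave the names of the 22 clusters, needing 3 markers in 10% of cells at 1.5-fold over the median cluster. Clusters with 25% or more of cells holding 2 or more UMIs of both T cell and myeloid genes stayed unnamed, a threshold set after the data were seen; they held 1162 cells, 1097 of them in the IgG library. This gave 11 named classes, with names rebuilt here and not the authors'.

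UMIs were summed per class and library. Levels have exact Poisson, shares Clopper-Pearson and ratios exact conditional intervals at 95%. A UMI count of 0 allows up to 3 counts. A ratio counted when it was past 1.5-fold with 50 CPM or more in either library. Shares of cells with a UMI were taken after thinning each cell to 1000 UMIs. The interval and ratio steps were tested on simulated data. Named genes were the 6 genes, the 5 most correlated with each, and up to 2 higher and 2 lower per list and comparison; other genes named from the lists, and those given by neutrophil group, were picked with their values in view. The 6 genes and the lists were chosen with earlier results of these data known. Sequences are from RefSeq (GRCm38.p6); 6 of 6 genes matched, and the NF-kB type motif was shortened by its last base after a first search. Alternatives were the filters, doublet removal, clustering, a marker gate, scaling, no minimum, and subtraction of the T-like level; each neutrophil group alone, and leaving out the monocyte-like cells with 10 or more calprotectin UMIs, single cells with most Cxcl1 or calprotectin UMIs, or the unnamed cells, were added after the data were seen. Results for 1 gene of these lists are not reported here.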

Additional observations from a re-analysis of the deposited data

Results flagged for a closer look

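Barcodes left out for more than 10% mitochondrial UMIs or more than 60000 UMIs were compared with the same kind of barcode of the IgG library. Levels were flagged when they had 10 or more UMIs and a ratio to IgG whose interval lay above 1. This flagged 3 levels, 1 for each chemokine. Cxcl1 was at 36.5 CPM in the 393 such barcodes of the anti-PSGL-1 library, from 22 UMIs, against 0 in the 219 of the IgG library. It was also at 21.4 CPM in the combination (8 UMIs) and 7.70 CPM in the anti-PD-1 library (7 UMIs), short of 10 UMIs. Cxcl2 was at 1562 CPM in the 196 such barcodes of the combination library, against 1077 CPM in the IgG library, while it was lower than there in the anti-PD-1 (553 CPM) and anti-PSGL-1 (856 CPM) libraries. Cxcl3 was at 367 CPM in the combination library, from 137 UMIs found in 1.53% of the barcodes, against 53.3 CPM in the IgG library, and was at 4.40 CPM (anti-PD-1) and 13.3 CPM (anti-PSGL-1) in the others. No class was assigned to these barcodes.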

How the results depend on the processing

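Of 62 measured ratios, 34 were past 1.5-fold and 20 of those stayed past it under all alternatives other than those added after the data were seen. Counts of genes past the fold (3 comparisons with IgG in the order used above, then the combination against each antibody alone) were compared with those reported. With cells of 200 genes or more, macrophage-like anti-PSGL-1 against IgG had 0, the share of calprotectin outside neutrophil-like cells was 6.24%, 5.90% and 16.7% in the IgG, anti-PD-1 and anti-PSGL-1 libraries, and the macrophage and monocyte share of chemokine UMIs was 52.8% (IgG) and 74.7% (anti-PSGL-1). Without doublet removal macrophage-like anti-PD-1 and combination against IgG had 2 each, the outside share was 14.3%, 11.4%, 25.1% and 24.9%, and the chemokine share 53.8%, 91.2%, 71.9% and 82.1%. With the 6 genes kept in clustering, the anti-PSGL-1 shares were 14.9% outside and 74.8% of chemokines. At Leiden resolution 0.5 the chemokine share was 93.0%, 77.1% and 84.7% (anti-PD-1, anti-PSGL-1, combination); at 2 it was 75.5% (anti-PSGL-1), and macrophage-like anti-PSGL-1 against IgG had 0. With a marker gate in place of clusters, neutrophil-like cells had 1 in anti-PSGL-1 against IgG and 2 in combination against anti-PSGL-1, monocyte-like cells 0 in combination against anti-PD-1, and macrophage-like cells 2, 2, 1 and 0 in the last 4 comparisons; the outside share was 7.49%, 6.62%, 10.01% and 6.00%, and the chemokine share 47.7%, 77.2%, 64.3% and 71.2%. Size factors gave 2 in combination against anti-PSGL-1 for neutrophil- and macrophage-like cells. Weighting each cell equally gave 0 there in neutrophil-like cells and 0 in macrophage-like anti-PSGL-1 against IgG. With no minimum, monocyte-like cells had 6 in the combination against IgG and also against anti-PD-1, and macrophage-like cells 3, 2, 3, 1 and 3. Subtracting the T-like level changed no direction and no count. In alternatives added after the data were seen, monocyte-like cells without the high calprotectin cells had 0, 2, 1, 1 and 1, the Retnlg group alone 1, 0, 1 and 3 in the first 4 comparisons, and the Hilpda group alone 2 and 5 in the last 2. Shares over all genes were not computed for these sets of cells. Without the top Cxcl1 cell of each library, neutrophil-like cells had 0 in the combination against anti-PSGL-1, with Cxcl1 at 0.868. Without the top calprotectin cell outside, the outside share was 6.05% (IgG), 14.6% (anti-PSGL-1) and 9.46% (combination), and without unnamed cells 4.33% (IgG).

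Several ratios short of 1.5-fold crossed 1 over the 9 other settings. Macrophage-like Cxcl1 against IgG fell from 1.12 to 0.687 in anti-PD-1, and from 1.35 to 0.665 in anti-PSGL-1. In the combination it fell from 1.22 to 0.580. Macrophage-like Cxcl3 in anti-PSGL-1 against IgG fell from 1.25 to 0.642. Neutrophil-like Cxcl1 in the combination against IgG fell from 1.11 to 0.759. Among ratios past 1.5-fold, directions turned in few. The marker gate gave monocyte-like Cxcl2 1.12 in anti-PD-1 against IgG, and S100a8 0.920 and S100a9 0.976 in the combination against IgG. Without the high calprotectin cells, monocyte-like S100a8 was 0.769 in anti-PSGL-1 and 0.885 in the combination against IgG and 1.15 in the combination against anti-PSGL-1, and S100a9 0.980 in the combination against IgG. Those cells were left out by these same counts, so such ratios only describe the cells that remained. In the Retnlg group Cxcl1 was 2.48 in anti-PD-1 and 2.79 in anti-PSGL-1 against IgG. In the Hilpda group the combination against IgG gave Cxcr2 0.521 and S100a8 0.964, and Cxcl1 was 0.640 against anti-PD-1 and 0.280 against anti-PSGL-1. The cause of these turns was not tested. No paired analysis was possible because each group was 1 library and no test was made, and no replicate could be left out. The 54 anti-PD-1 neutrophil-like cells limit every value of that class and library.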

Other observations

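Cells of the mast- or basophil-like class, led by Cma1, Mcpt4 and Cpa3, were few but held much Cxcl2, at 7393 CPM in 24 cells of the IgG library, 2514 CPM in 11 cells of the anti-PD-1 library and 8167 CPM in 13 cells of the anti-PSGL-1 library. The 3 such cells of the combination library had 0 UMIs, which allows up to 179 CPM (3 counts). In each of the other libraries 33.3% to 38.5% of these cells had a Cxcl2 UMI, and 1 cell held 38.5%, 51.3% and 54.2% of the UMIs. Cxcr2 was found in 8.33%, 27.3% and 15.4% of them.

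In the anti-PSGL-1 library 12 pDC-like cells held 5904 CPM of Cxcl2 and 519 CPM of Cxcl3, with UMIs in 16.7% of the cells, against 48.4 and 2.20 CPM in 184 cells of the IgG library. Migratory dendritic-like cells held 71.0 CPM of Cxcl1 in the IgG library, where 1 of 107 cells had 45 of the 51 UMIs. Without that cell the level was 8.46 CPM (3.104 to 18.4).

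The unnamed cells of the IgG library, where T cell and myeloid genes occurred together, had 29.6 S100a8 and 32.8 S100a9 UMIs per 100 cells among cells with fewer than 10, at an S100a8 share of 47.4%. Barcodes with fewer than 300 genes held 3579 CPM of S100a8 and 5997 CPM of S100a9 in the IgG library (49 barcodes) and 2757 and 2795 CPM in the anti-PSGL-1 library (40 barcodes), and 0 UMIs of either in the anti-PD-1 (31 barcodes) and combination (36 barcodes) libraries.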
